A study of Mus musculus with 35 samples.

Results

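The genes of the alpha v integrins, some of which cilengitide blocks, were followed through 8 groups of mouse skin wounds. They are Itgav, which encodes the alpha v subunit, and Itgb3, Itgb5, Itgb6 and Itgb8, which encode 4 of the beta subunits that pair with it. They were taken by gene symbol, 5 of the 22830 symbols of each deposited count table, and all 5 passed the filter on low counts in every comparison. Itgb1, whose beta 1 subunit also pairs with alpha v but with many other alpha chains as well, was kept apart and is given for comparison.

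Integrins are receptors made of an alpha and a beta chain that tie the cytoskeleton to the matrix outside the cell. The alpha v integrins bind the tripeptide Arg-Gly-Asp in fibronectin, vitronectin, osteopontin and tenascin C, and several of them also pull on the latent complex of TGF-beta and so release the active cytokine. In skin, alpha v beta 3 is known from angiogenic endothelium, platelets and activated fibroblasts, alpha v beta 5 from many cell types, and alpha v beta 6 from the keratinocytes that migrate over a wound. Cilengitide is a cyclic peptide modelled on Arg-Gly-Asp that inhibits alpha v beta 3 and alpha v beta 5.

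Bulk RNA-seq was performed on punch biopsies from the middle of excisional back skin wounds of male and female mice aged 8 to 12 weeks. Col5a1CKO mice carry Col1a2CreERT and Col5a1 fl/fl, and tamoxifen around the time of wounding deletes Col5a1, the gene of the type V collagen alpha 1 chain, in cells in which the Col1a2 driver is active. WT mice also carry Col5a1 fl/fl and lack Cre, and all mice received tamoxifen and a wound. There were 7 WT and 7 Col5a1CKO wounds at day 14, 3 Col5a1CKO wounds at day 14 that had been injected with cultured WT fibroblasts where the others received PBS, and 3 WT and 3 Col5a1CKO wounds at day 19. A separate table held 4 WT wounds with vehicle, 4 Col5a1CKO wounds with vehicle and 4 Col5a1CKO wounds with cilengitide, injected daily into the peritoneum from the day before wounding, with PBS as vehicle. The vehicle wounds are labelled day 14. The cilengitide wounds carry no time label of their own, and the protocol text they share with the vehicle wounds gives 14 days. For the 3 Col5a1CKO wounds of day 19 a treatment label mentions WT fibroblasts, whereas titles and column names do not, and the titles were followed, as they were for the wounds titled as given fibroblasts. A wound had between 15043531 and 35700337 counts in the first table and between 51211600 and 68266760 in the cilengitide one. The labels do not name the mouse of each wound, and the study's methods describe all replicates as biologically separate.

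Libraries of the first table fell into 2 sets that differed in how GC-rich and GC-poor genes were counted. The lower set was made up of the day 14 wounds a, b, c and d of WT and a, b, c, d and e of Col5a1CKO, and the remaining wounds of that table made up the upper set. The transcripts of Itgav (43.6% GC), Itgb6 (44.1%) and Itgb8 (40.4%) lie below the median of 50.4% GC over 11264 expressed genes, that of Itgb3 (51.9%) near it, and that of Itgb5 (57.7%) above. CPM are counts scaled to a common library size after TMM normalization. In WT wounds of day 14 Itgav was 181 to 219 CPM in the lower set and 78.4 to 99.8 CPM in the upper. Itgb3 was 30.4 to 42.3 CPM in the lower set and 10.4 to 23.3 CPM in the upper. Itgb5 was 109 to 181 CPM in the lower set and 234 to 285 CPM in the upper. None of these genes overlapped between the sets in those wounds. Itgb6 and Itgb8 did overlap, with medians of 18.7 and 4.62 CPM in the lower set and 23.6 and 8.36 CPM in the upper. These shifts did not follow the order of transcript GC, and their cause was not tested. Given these shifts, values within a set stand beside the results of that table whose call, direction or overlap they change. Y-linked RNA without Xist was found in all 3 upper-set WT wounds of day 14 and in none of the 5 upper-set Col5a1CKO wounds of that day, so that sex and genotype cannot be told apart there. At day 19, Y-linked RNA without Xist was found in 1 of 3 WT wounds and 0 of 3 Col5a1CKO wounds. Among the wounds of the cilengitide experiment, 2 WT, 3 Col5a1CKO vehicle and 2 Col5a1CKO cilengitide wounds had Y-linked RNA, and 1 vehicle wound had neither Y-linked RNA nor Xist. Col5a1 itself was 1069 ± 870 CPM (SD, n = 7) in WT and 397 ± 172 CPM (SD, n = 7) in Col5a1CKO wounds of day 14, with overlapping wounds and an adjusted p of 0.0757 (edgeR). Within the lower set the WT wounds, at 851 to 2404 CPM, did not overlap the Col5a1CKO wounds, at 171.5 to 667 CPM. In the upper set the ranges were 345 to 378 CPM for WT and 229 to 351 CPM for Col5a1CKO.

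The 5 genes lie apart in the genome. On mouse build NCBI37/mm9, with the GENCODE annotation of that build, Itgav (NM_008402) spans chr2:83564554-83647073 on the plus strand and Itgb6 (NM_021359) chr2:60436349-60560700 on the minus strand. Itgb3 (NM_016780) spans chr11:104469370-104531790 on the plus strand, Itgb5 (NM_001145884) chr16:33829751-33949239 on the plus strand and Itgb8 (NM_177290) chr12:120396495-120477275 on the minus strand. Counts were taken over the exons of these transcripts.

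Upstream windows are shown for the shared alpha subunit, for the most abundant beta subunit and for the epithelial one, since these 3 genes followed different courses. They are the 250 bases before an annotated RefSeq start on build GRCm38.p6, a later build than that of the counts, and 4 of the 5 genes matched by symbol (Itgb3 did not). Capitals mark GGGCGG on either strand, the core of the GC box.
Itgav, chr2:83724147-83724396, plus strand: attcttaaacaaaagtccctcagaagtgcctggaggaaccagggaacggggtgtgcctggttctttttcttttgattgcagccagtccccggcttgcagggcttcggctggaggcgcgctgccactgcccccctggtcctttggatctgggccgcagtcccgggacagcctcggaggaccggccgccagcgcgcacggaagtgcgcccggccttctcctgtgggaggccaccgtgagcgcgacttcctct
Itgb5, chr16:33829415-33829664, plus strand: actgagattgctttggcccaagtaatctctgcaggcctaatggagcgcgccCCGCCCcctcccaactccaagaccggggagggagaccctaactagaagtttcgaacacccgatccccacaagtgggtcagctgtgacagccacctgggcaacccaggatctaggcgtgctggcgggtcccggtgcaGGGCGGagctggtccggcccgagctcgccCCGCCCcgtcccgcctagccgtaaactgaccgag
Itgb6, chr2:60722604-60722853, minus strand: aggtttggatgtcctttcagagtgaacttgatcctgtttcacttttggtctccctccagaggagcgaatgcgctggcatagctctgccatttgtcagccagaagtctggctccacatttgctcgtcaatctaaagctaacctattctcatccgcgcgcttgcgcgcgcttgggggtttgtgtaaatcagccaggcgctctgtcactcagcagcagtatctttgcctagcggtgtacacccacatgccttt
Itgb6, second start, chr2:60673694-60673943, minus strand: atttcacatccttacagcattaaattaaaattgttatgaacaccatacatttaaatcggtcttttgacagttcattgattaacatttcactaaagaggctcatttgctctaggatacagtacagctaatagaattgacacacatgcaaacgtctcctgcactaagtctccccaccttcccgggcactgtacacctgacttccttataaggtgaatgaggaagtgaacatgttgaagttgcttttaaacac
The Itgb5 window held GGGCGG 3 times, and the windows of Itgav, Itgb6 and Itgb8 did not hold it, against 32.7% of all 32851 windows with at least 1 match. None of these windows held TATAAA (12.4% of all windows), TGANTCA (6.75%), where N is any base, or GGAATG (12.6%), each sought on both strands and none overlapping a GC box. GC content was 64.4% for Itgav, 65.2% for Itgb5, 62.4% for Itgb8, and 52.0% and 38.0% for the Itgb6 starts, against a median of 52.4% over all windows.

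By group medians per length, Itgb5 was the most abundant of the 5 transcripts in all 8 groups and Itgb8 the least in all but Col5a1CKO vehicle, where Itgb6 was at 0.507 RPKM and Itgb8 at 1.18 RPKM. Single wounds departed from this order. In WT wounds of day 14 the median was 37.4 RPKM for Itgb5, 18.1 RPKM for Itgav, 3.57 RPKM for Itgb3, 2.98 RPKM for Itgb6 and 1.59 RPKM for Itgb8. The ranges of Itgb3 (1.19 to 5.19 RPKM) and Itgb6 (1.203 to 5.72 RPKM) overlapped almost wholly, so these neighbours in the order did not differ beyond their spread, whereas Itgb5 (23.6 to 54.8 RPKM) and Itgav (7.07 to 21.8 RPKM) did not overlap. Col5a1CKO wounds of day 14 kept this order of medians, with 43.1 RPKM for Itgb5, 30.6 for Itgav, 9.47 for Itgb3, 1.30 for Itgb6 and 0.356 for Itgb8. There Itgav (12.4 to 43.0 RPKM) overlapped Itgb5 (29.8 to 65.0 RPKM), and Itgb3 (3.96 to 14.7 RPKM) overlapped both Itgav and Itgb6 (0.259 to 6.98 RPKM).

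**Figure D1:**
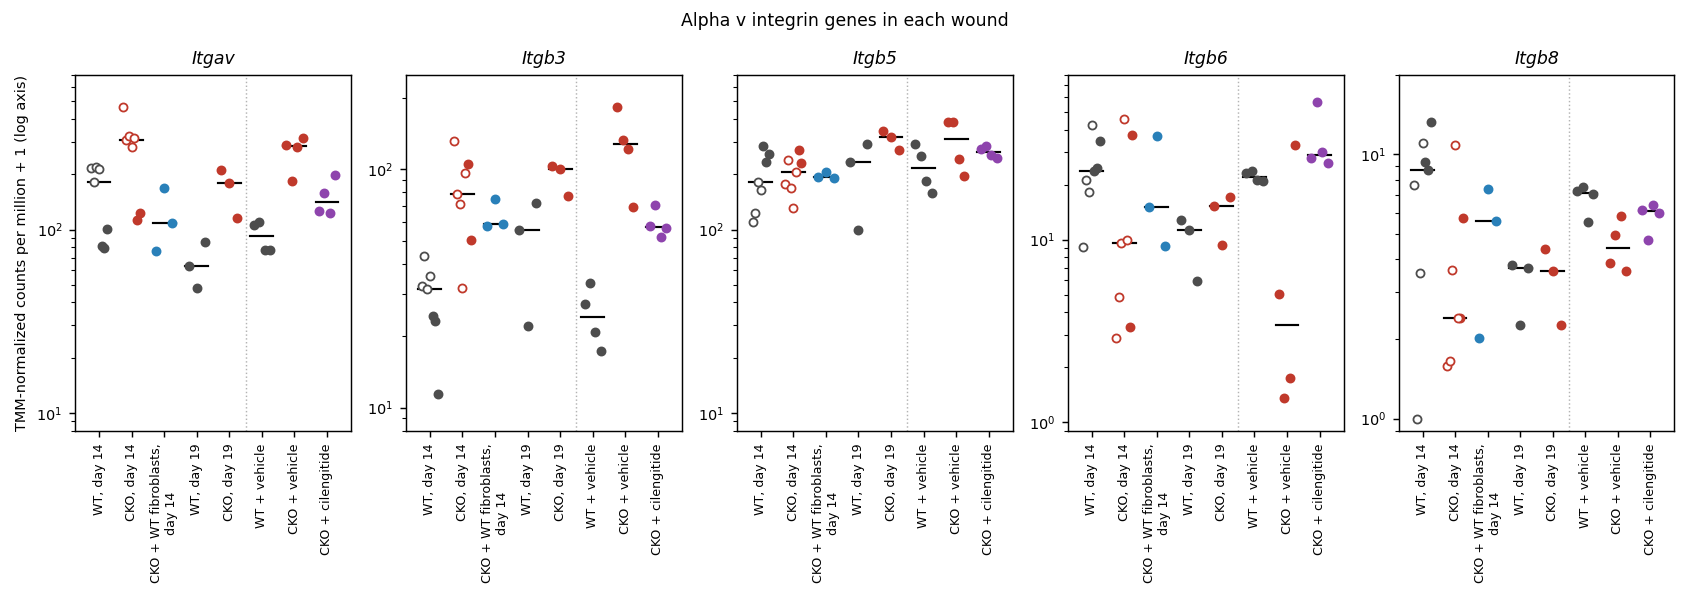
Each point is 1 wound, on a log axis of TMM-normalized CPM plus 1, with 1 panel per gene and a line at each group's median. Open points are libraries of the lower set, and the dotted line parts the 2 tables, which were normalized separately. Itgav and Itgb3 sat higher in all 4 Col5a1CKO vehicle wounds (182 to 314 and 68.3 to 181 CPM) than in any WT vehicle wound, and Itgb6 fell to 0.363 CPM in 1 of them.

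As a share of the RPKM summed over the 4 beta subunits, Itgb5 made up a median of 85.1% in WT and 77.5% in Col5a1CKO wounds of day 14, and never less than 69.1% in any of the 35 wounds. Itgb3 made up 1.98% to 15.1% in the WT wounds (median 8.11%) and 9.19% to 29.4% in the Col5a1CKO wounds (median 17.9%). With all RefSeq transcripts of a symbol summed, these medians were 4.24% and 9.90%. In WT wounds the Itgb3 share was 8.11% or more in the lower library set and 4.62% or less in the upper. In the cilengitide table, whose RPKM values here rest on the transcript lengths of the other table, the Itgb3 share was 4.55% to 6.31% in WT vehicle, 15.1% to 21.7% in Col5a1CKO vehicle and 9.42% to 10.8% in Col5a1CKO cilengitide wounds. These 3 groups did not overlap. Itgb5 RPKM was 13.6 to 19.5 times Itgb3 RPKM in WT vehicle, 3.52 to 5.11 times in Col5a1CKO vehicle and 7.19 to 8.73 times in Col5a1CKO cilengitide wounds. The shares describe transcripts in tissue, not receptors on a cell, and were not tested.

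**Figure D2:**
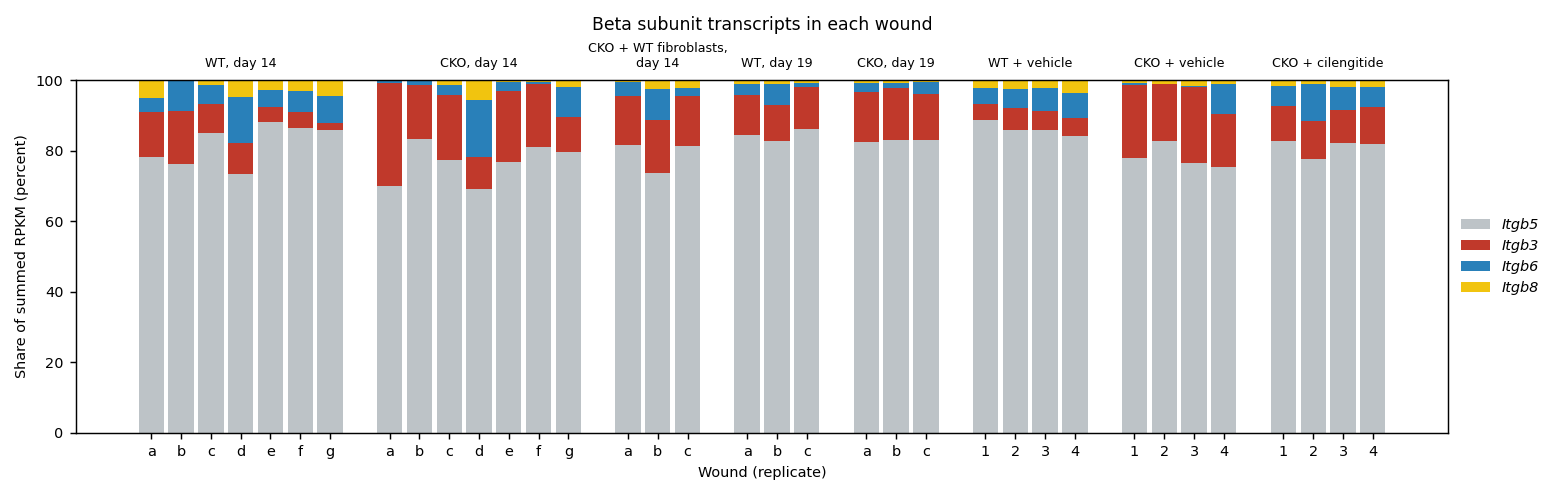
Each bar is 1 wound and shows the share of Itgb5, Itgb3, Itgb6 and Itgb8 in their summed RPKM, in percent. Itgb5 was the largest share in every wound, and the Itgb3 share was 4.55% to 6.31% in WT vehicle and 15.1% to 21.7% in Col5a1CKO vehicle wounds.

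Loss of Col5a1 was compared first at day 14, where Itgb3 was higher in Col5a1CKO wounds and the other 4 genes did not pass the test. Itgb3, the beta 3 chain, had a lowest value of 10.4, a median of 30.4 and a highest value of 42.3 CPM in 7 WT wounds, and of 30.7, 77.8 and 131 CPM in 7 Col5a1CKO wounds. The groups overlapped only through Col5a1CKO replicate d, at 30.7 CPM, and the other 6 Col5a1CKO wounds lay above every WT wound. This was a log2 fold change of 1.52 (SE 0.34, adjusted p = 0.0133, edgeR). Within the lower library set it was 1.21 (adjusted p = 0.0518) and within the upper set, with 3 WT and 2 Col5a1CKO wounds, 2.15 (adjusted p = 0.0588), so that the direction held in both sets and the call in neither. Among all 14367 genes tested, 5.57% were called higher at an adjusted p under 0.05 and at least 2-fold and 2.71% lower, and of the alpha v integrin genes 1 of 5 was called higher and 0 of 5 lower.

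Itgav had a lowest value of 78.4, a median of 181 and a highest value of 219 CPM in WT wounds, and of 111, 307 and 467 CPM in Col5a1CKO wounds. The wounds overlapped across the library sets, but within each set every Col5a1CKO wound lay above every WT wound, at 281 to 467 against 181 to 219 CPM in the lower set and at 111 and 121 against 78.4 to 99.8 CPM in the upper. The log2 fold change was 0.81 (SE 0.36, adjusted p = 0.159, edgeR), with a 95% interval of 0.11 to 1.5, and did not pass. Itgb1, which encodes the beta 1 chain, behaved alike in size, with 690 ± 433 CPM in WT and 1347 ± 551 CPM in Col5a1CKO wounds (SD, n = 7 each) and a log2 fold change of 0.95 (adjusted p = 0.193, edgeR). Within each set its Col5a1CKO wounds also lay above every WT wound. They were at 1381 to 1888 against 704 to 1179 CPM in the lower set. In the upper set they were at 545 and 631 against 197 to 359 CPM.

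Itgb5 did not differ detectably at day 14. It was 193 ± 67.6 CPM in WT and 202 ± 47.5 CPM in Col5a1CKO wounds (SD, n = 7 each), the ranges overlapped, and the 95% interval of the log2 fold change ran from -0.38 to 0.57.

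Itgb6, the epithelial partner, was spread over a wide range in Col5a1CKO wounds. It had a lowest value of 8.09, a median of 22.7 and a highest value of 41.4 CPM in WT wounds, and of 1.91, 8.59 and 44.7 CPM in Col5a1CKO wounds. Replicate d of the Col5a1CKO group (44.7 CPM) lay above every WT wound and replicate g (36.5 CPM) above all but 1, and the other 5 lay at 1.91 to 8.99 CPM. The log2 fold change of -0.62 (SE 0.66, adjusted p = 0.575, edgeR) did not pass. The same 2 wounds had the most keratinocyte RNA of their group. The summed level of 8 keratinocyte markers was 32030 CPM in replicate d and 63510 CPM in replicate g, 41.9 to 2434 CPM in the other 5 Col5a1CKO wounds and 35310 to 155600 CPM in the WT wounds. None of the 8 markers was called, all 8 fold changes were below 0, and their median was -1.58 on the log2 scale. In bulk tissue, fewer cells of a type and less RNA per cell cannot be told apart.

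Itgb8, which partners alpha v in a receptor known for activating TGF-beta, was the rarest member. It had 0, 7.74 and 12.3 CPM as its lowest, median and highest values in WT wounds and 0.577, 1.41 and 9.85 CPM in Col5a1CKO wounds. WT replicate b had 0 counts, and the highest Col5a1CKO wound was again replicate d. Its log2 fold change of -1.15 (SE 0.87, adjusted p = 0.416, edgeR) did not pass.

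Genes around the receptor were higher in Col5a1CKO wounds of day 14 more often than lower. Of 14 genes of alpha v ligands and latent TGF-beta, 7 were called higher and 0 lower, with a median log2 fold change of 1.52 against -0.03 over all genes. They included Ctgf, encoding a matricellular protein (2.33, adjusted p = 0.0122), Tnc, encoding tenascin C (3.01, adjusted p = 0.0135), and Cyr61, encoding another matricellular ligand (1.55, adjusted p = 0.0169). Of 17 genes of the adhesion machinery, 7 were called higher and 0 lower (median 1.04), led by Tln1 for talin (1.13, adjusted p = 0.00878), Pxn for paxillin (1.39, adjusted p = 0.00966) and Tln2 (1.17, adjusted p = 0.0111). Of 20 other integrin subunit genes tested, 6 were called higher and 0 lower (median 1.04). These were Itga5, whose product pairs with beta 1 as a fibronectin receptor (1.90, adjusted p = 0.00422), Itgam of the leukocyte integrin Mac-1 (2.55, adjusted p = 0.00515), Itga9 (1.70, adjusted p = 0.00837), and Itgb2, Itgal and Itga4, which are mainly leukocyte subunits. All adjusted p-values are from edgeR.

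Markers of other cells that carry beta 3 were also higher in those wounds. The sum of 6 endothelial markers reached 68.6 to 257 CPM in WT wounds against 233 to 583 CPM in Col5a1CKO wounds, with 3 of 6 called higher and 0 lower, and that of 6 macrophage markers was 257 to 952 CPM against 899 to 2472 CPM, with 3 of 6 called higher and 0 lower. Itgb3 relative to Pecam1, an endothelial adhesion molecule, lay between 0.242 and 0.881 for WT and between 0.286 and 0.772 for Col5a1CKO wounds on the CPM scale. The platelet sum was 20.2 to 136 CPM against 78.9 to 604 CPM, with 1 of the 3 markers tested called higher and with Gp9, Gp1ba and Gp5 at 0 in some wounds of both groups. Itga2b, whose alpha chain pairs with beta 3 on platelets, was 3.61 ± 1.83 CPM in WT and 7.32 ± 2.78 CPM in Col5a1CKO wounds (SD, n = 7 each, adjusted p = 0.317, edgeR). The sum of 7 fibroblast markers was 4780 to 49100 CPM against 19640 to 66260 CPM, with Pdgfra, Thy1 and Acta2 called higher. The part of these cells in the Itgb3 result was not tested.

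Col5a1CKO wounds of day 14 that received PBS and no fibroblasts are called untreated below. In Col5a1CKO wounds given WT fibroblasts, 0 of the 5 genes were called against untreated Col5a1CKO wounds in edgeR or in DESeq2. Over all 15659 genes edgeR called 0% higher and 0% lower in that comparison, while 37 and 854 genes were at least 2-fold higher or lower at an unadjusted p under 0.05. DESeq2 called 9 higher and 10 lower. Itgav was 75.4, 168 and 108 CPM in the 3 wounds with fibroblasts. These wounds overlapped the untreated ones, and the log2 fold change was -1.23 (SE 0.47, unadjusted p = 0.023, adjusted p = 0.365, edgeR). All 3 belonged to the upper library set, where the 2 untreated wounds had 111 and 121 CPM, and within that set the log2 fold change was 0.07 (adjusted p = 0.9999). Itgb3 was 56.7, 73.8 and 57.9 CPM with fibroblasts, within the untreated range, and its log2 fold change was -0.35 (SE 0.38, adjusted p = 0.678, edgeR). Itgb5 was 192, 205 and 189 CPM, and Itgb6 was 14.0, 36.1 and 8.23 CPM, both inside the untreated range. In the same order the keratinocyte sum was 26350, 32210 and 14000 CPM. The wound with most Itgb6 had the highest keratinocyte sum here, but not in the WT groups, in untreated Col5a1CKO wounds of day 14 or with cilengitide. Itgb8 was 1.01, 6.39 and 4.596 CPM, also within the untreated range.

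Against WT wounds of day 14, Itgb3 lay higher in all 3 wounds with fibroblasts, at 56.7 to 73.8 against at most 42.3 CPM. The log2 fold change was 1.31 (SE 0.36, unadjusted p = 0.00371) and its adjusted p of 0.0554 in edgeR missed the threshold, so that 0 of 5 members were called where 3.77% of 15316 genes were called higher and 2.06% lower. DESeq2 called Itgb3 (adjusted p = 0.0229), as did edgeR within the upper set, with 3 wounds in each group (log2 fold change 1.91, adjusted p = 0.00262), without WT replicate b (adjusted p = 0.0334) and without WT replicate g (adjusted p = 0.0403). Itgav had a log2 fold change of -0.28 (adjusted p = 0.767) over all wounds and of 0.59 (adjusted p = 0.126) within the upper set. Beside Itgb3, macrophage markers stood at 1457 to 2158 CPM with fibroblasts, above the 257 to 952 CPM of WT, with 3 of 6 called higher and 0 lower. The endothelial sum was also above that of WT, at 308 to 517 against 68.6 to 257 CPM, with Kdr and Cdh5 called higher of 6 markers, and of 5 neutrophil markers Cxcr2 and Csf3r were called higher (8115 to 9879 against 1145 to 8985 CPM). Their part in the Itgb3 values was not tested. Among 14 ligand genes only Tgfb1 was called higher (2.46, adjusted p = 0.00850) and none lower. Of 17 adhesion genes 7 were higher and 0 lower, led by Zyx (2.59, adjusted p = 0.000421), Pxn (2.28, adjusted p = 0.00138) and Tns1 (1.42, adjusted p = 0.00266), the genes of zyxin, paxillin and tensin 1. Of 20 other subunits 6 were higher and 0 lower, led by the leukocyte genes Itgal (3.02, adjusted p = 0.000191) and Itgb2 (2.54, adjusted p = 0.00191) and by Itga5 (1.98, adjusted p = 0.00510).

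At day 19, Itgav and Itgb3 were higher in all 3 Col5a1CKO wounds than in any of the 3 WT wounds, and neither passed in edgeR. Itgav was 62.0, 47.1 and 84.9 CPM in WT and 209.5, 177 and 115 CPM in Col5a1CKO wounds. Its log2 fold change was 1.43 (SE 0.35, unadjusted p = 0.00656, adjusted p = 0.130, edgeR), while DESeq2 gave 1.42 and an adjusted p of 0.00548. Itgb3 was 54.8, 21.1 and 71.2 CPM in WT and 102.5, 99.2 and 76.5 CPM in Col5a1CKO wounds, with a log2 fold change of 0.96 (SE 0.47, adjusted p = 0.260, edgeR). Col5a1CKO replicate c and WT replicate c were the closest pair of that gene. In this comparison edgeR called 0.0198% of 15135 genes higher and 0% lower, and 0 of 5 members in either direction, while DESeq2 called 708 genes higher and 782 lower. At least 2-fold and at an unadjusted p under 0.05 stood 815 and 943 genes.

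Itgb5 was 232, 97.8 and 293 CPM in WT and 341, 317 and 272 CPM in Col5a1CKO wounds of day 19, with WT replicate b below the rest and a log2 fold change of 0.62 (adjusted p = 0.404, edgeR). Itgb6 was 11.8, 10.3 and 4.95 CPM against 14.3, 8.33 and 16.0 CPM, and Itgb8 was 2.80, 1.27 and 2.70 CPM against 3.37, 2.61 and 1.25 CPM. Both pairs of groups overlapped. Endothelial markers, beside Itgav and Itgb3, had sums of 268 to 553 CPM for WT and, without overlap, of 616 to 941 CPM for Col5a1CKO at day 19, and fibroblast markers had sums of 8814 to 74590 CPM and 74000 to 101500 CPM. All 6 and all 7 of their fold changes were above 0 and none was called, and their part was not tested. The keratinocyte sum at that day lay between 15120 and 26560 CPM in WT wounds and between 7456 and 22320 CPM in Col5a1CKO wounds. Itgb1 was higher in every Col5a1CKO wound here as well, at 748 to 1026 against 208 to 529 CPM (log2 fold change 1.34, adjusted p = 0.159, edgeR). No gene of the ligand, adhesion or other subunit lists was called by edgeR at day 19. The genotype effect was also compared between the days with an interaction term, and 0 of the 5 genes had an effect that differed (unadjusted p of at least 0.289 and adjusted p of 0.9999 for each, edgeR), and DESeq2 also called 0. The 95% interval of that difference was -0.59 to 1.78 for Itgav and -1.76 to 0.61 for Itgb3 on the log2 scale.

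From day 14 to day 19, 0 of the 5 genes were called in WT wounds, where 1.5% of 15180 genes were called higher and 4.25% lower. Itgav had a log2 fold change of -1.23 from day 14 to day 19 (SE 0.47, unadjusted p = 0.0233, adjusted p = 0.140, edgeR), and within the upper library set, where 3 wounds of each day gave 78.4 to 99.8 and 47.1 to 84.9 CPM, the ranges overlapped. Itgb6 had a log2 fold change of -1.37 (unadjusted p = 0.0193, adjusted p = 0.128, edgeR). DESeq2 called it (log2 fold change -1.28, adjusted p = 0.04996), and so did edgeR within the upper set (-1.44, adjusted p = 0.0258). In that set its wounds did not overlap, at 22.7 to 33.7 CPM on day 14 and 4.95 to 11.8 CPM on day 19. Itgb8 too was called within the upper set (-1.92, adjusted p = 0.0197), with 7.74 to 12.3 CPM on day 14 and 1.27 to 2.80 CPM on day 19. All 3 day 14 wounds of that set had Y-linked RNA without Xist, and 2 of the 3 at day 19 had Xist only. Day and sex can therefore not be fully told apart within that set. The keratinocyte sum of the upper-set wounds moved with Itgb6 and Itgb8, from 111100 to 155600 CPM down to 15120 to 26560 CPM. Over all 7 WT wounds of day 14 that sum was 35310 to 155600 CPM. In the fit of all WT wounds Dsg3 was called lower (-2.17, adjusted p = 0.0440, edgeR) among the 8 markers and none higher. Itgb3 ran the other way, at 54.8, 21.1 and 71.2 CPM on day 19 against 10.4 to 42.3 CPM on day 14, with a log2 fold change of 0.87 (SE 0.46, adjusted p = 0.288, edgeR). It was called with the library set as a covariate (1.56, adjusted p = 0.0446), and within the upper set, where day 14 gave 10.4 to 23.3 CPM, it was 1.56 (adjusted p = 0.0699). The endothelial sum was 268 to 553 CPM on day 19 against 68.6 to 257 CPM on day 14, with Cdh5 called higher. The 3 called adhesion genes were Tns1 (1.73, adjusted p = 0.00981), Pxn (1.44, adjusted p = 0.0154) and Tln1 (1.27, adjusted p = 0.0440), all higher at day 19, and no ligand or other subunit gene was called.

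In Col5a1CKO wounds 0 of the 5 genes were called between the days by edgeR or DESeq2, where edgeR called 1.87% of 15327 genes higher and 3.85% lower. Itgb5 was higher in all 3 wounds of day 19, at 272 to 341 CPM, than in any of day 14, at 131 to 270 CPM, with a log2 fold change of 0.61 (SE 0.23, unadjusted p = 0.0244, adjusted p = 0.123, edgeR) against a median of -0.12 over all genes. Itgav had a log2 fold change of -0.72 (adjusted p = 0.322), which was 0.58 (adjusted p = 0.313) within the upper set. The ligand genes Cyr61 (1.57, adjusted p = 0.0120) and Ctgf (2.65, adjusted p = 0.0175) and the subunit genes Itga11 (1.87, adjusted p = 0.0157) and Itga7 (1.58, adjusted p = 0.0393), whose products bind collagen and laminin, were called higher at day 19, and no gene of these lists lower.

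**Figure D3:**
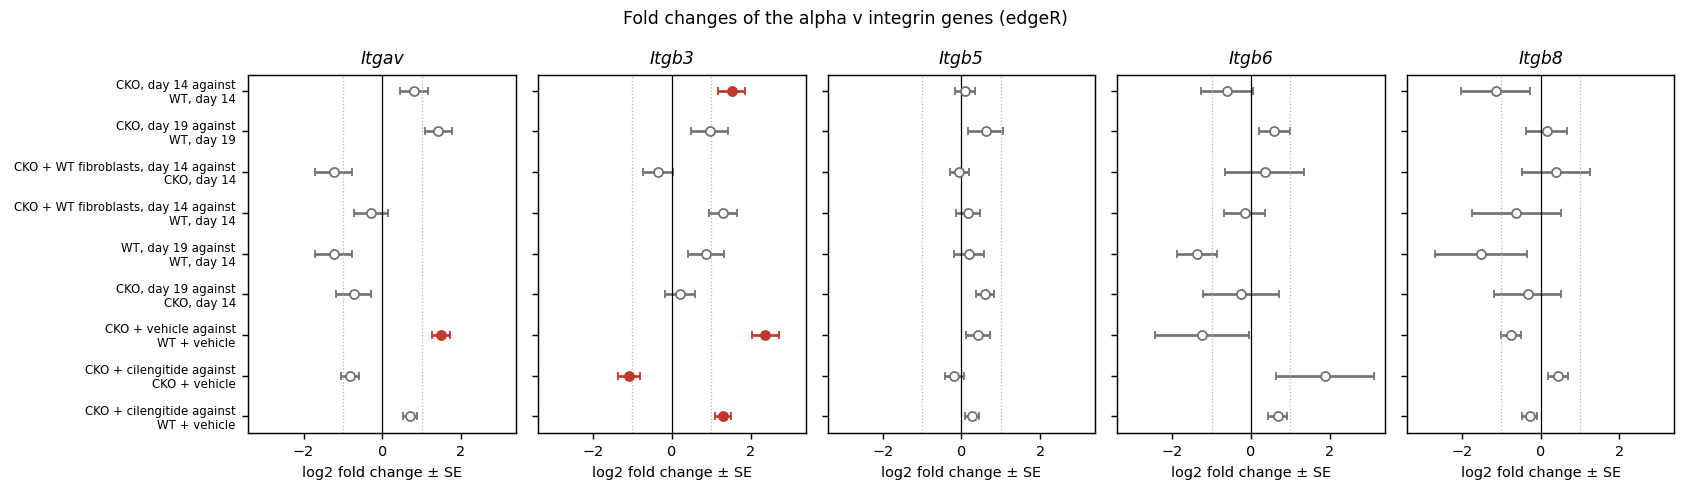
Points are log2 fold changes from edgeR with bars of 1 SE, 1 panel per gene and 1 line per comparison, and filled red points passed an adjusted p of 0.05 and 2-fold (dotted lines). Itgb3 passed in 4 comparisons and Itgav in 1, and the Itgb5 values stayed between -0.18 and 0.62.

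The cilengitide experiment compared Col5a1CKO and WT wounds again, with vehicle, and there both Itgav and Itgb3 were called higher. Itgav was 105, 109, 76.5 and 76.7 CPM in WT vehicle wounds and 289.5, 182, 279.8 and 314 CPM in Col5a1CKO vehicle wounds. Every Col5a1CKO wound lay above every WT wound, and the log2 fold change was 1.49 (SE 0.22, adjusted p = 0.00172, edgeR), or 2.81-fold. Itgb3 was 26.2, 32.2, 19.9 and 16.4 CPM in WT and 181, 132, 121 and 68.3 CPM in Col5a1CKO wounds. These groups were also apart, with Col5a1CKO replicate 4 the lowest of its group, and the log2 fold change was 2.37 (SE 0.34, adjusted p = 0.00169, edgeR), or 5.16-fold. Both genes were called whichever wound was left out. This was the comparison with most changes, 17.5% of 15434 genes called higher and 13.4% lower, against 2 of 5 members higher and 0 of 5 lower.

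The other beta subunits did not follow. Itgb5 was 291, 249, 182 and 158 CPM in WT and 387, 383, 242 and 194 CPM in Col5a1CKO vehicle wounds, and the overlapping groups gave a log2 fold change of 0.42 (SE 0.30, adjusted p = 0.285, edgeR), with a 95% interval of -0.18 to 1.01. Itgb8 was 6.23, 6.53, 4.55 and 6.08 CPM in WT and 2.87, 3.95, 4.85 and 2.60 CPM in Col5a1CKO wounds. It had an adjusted p of 0.0409 at a log2 fold change of -0.75 (SE 0.26, edgeR), below 2-fold, and 1 Col5a1CKO wound, replicate 3, lay within the WT range.

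Itgb6 parted the Col5a1CKO vehicle wounds. It was 22.1, 22.8, 20.1 and 19.99 CPM in the WT wounds, a narrow range, and 4.05, 0.363, 0.745 and 32.0 CPM in the Col5a1CKO wounds. Replicates 1 to 3 lay below every WT wound and replicate 4 above every one, and over all wounds the log2 fold change of -1.26 (SE 1.19, adjusted p = 0.409, edgeR) did not pass. Without replicate 4 it was -3.63 (adjusted p = 0.0111, edgeR). The keratinocyte sum was 62540 to 98510 CPM in WT wounds, 2155, 76.2 and 223 CPM in Col5a1CKO replicates 1 to 3 and 14290 CPM in replicate 4. Of the 8 markers, Krt10, Krt1, Cdh1 and Krt5 were called lower and none higher. Per 10000 CPM of Krt14 and Krt5 together, the keratins of basal cells, Itgb6 was 10.95 to 17.8 CPM in WT and 27.3, 76.7, 48.9 and 31.4 CPM in Col5a1CKO vehicle wounds, a description chosen after the values were seen. At Krt14 and Krt5 as low as 27.97 and 19.4 CPM in replicate 2, the ratio rests on few keratinocyte counts.

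Ligands and adhesion genes were higher in these wounds too. Of 14 ligand genes 7 were called higher and 0 lower (median log2 fold change 1.98, against 0.02 over all genes), led by Ctgf (3.14, adjusted p = 0.00161), Tgfb1 (2.11, adjusted p = 0.00234) and Thbs1 for thrombospondin 1 (5.42, adjusted p = 0.00248). Of 17 adhesion genes 11 were higher and 0 lower (median 1.25), led by Zyx (2.16, adjusted p = 0.00103), Lims1 (1.82, adjusted p = 0.00135) and Ilk for integrin-linked kinase (1.42, adjusted p = 0.00157). Of 20 other subunits 11 were higher and 2 lower (median 1.84). Those higher were led by the leukocyte genes Itgal (3.27, adjusted p = 0.000620), Itgb2 (3.91, adjusted p = 0.00130) and Itgam (4.67, adjusted p = 0.00140), and included Itgb1, with 402 ± 167 CPM in WT and 1542 ± 238 CPM in Col5a1CKO wounds (SD, n = 4 each), a log2 fold change of 1.89 (adjusted p = 0.00417). The 2 that were lower were Itgb4 (-2.16, adjusted p = 0.0292), the hemidesmosome chain of basal keratinocytes, and Itga3 (-1.80, adjusted p = 0.0310), a laminin receptor chain.

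Cell markers moved as well. All 6 macrophage markers were called higher (sum 143 to 419 CPM in WT, 1531 to 6709 CPM in Col5a1CKO vehicle), as were 4 of 5 neutrophil markers (95.8 to 2200 against 1550 to 44470 CPM), 3 of 6 endothelial markers (50.9 to 353 against 411 to 971 CPM), 4 of 7 fibroblast markers (5702 to 33210 against 16050 to 64380 CPM) and 2 of 4 platelet markers tested (11.6 to 21.5 against 86.3 to 464 CPM), and none of these was called lower. Itgb3 relative to Pecam1 was 0.303 to 0.924 in WT and 0.422 to 0.653 in Col5a1CKO vehicle wounds. Relative to Csf1r it was 0.191 to 0.299 in WT and 0.125 to 0.499 in Col5a1CKO vehicle wounds. Relative to Pdgfra these ranges were 0.312 to 1.13 and 0.2745 to 0.674, and relative to Col1a1 0.0017 to 0.0063 and 0.0049 to 0.0111. Itgav relative to Pecam1 was 1.02 to 4.33 in WT and 0.73 to 1.94 in Col5a1CKO vehicle wounds. Relative to Csf1r it was 0.769 to 1.365 and 0.406 to 0.7985. Relative to Pdgfra it was 1.25 to 5.30 and 0.408 to 3.10, and relative to Col1a1 0.0069 to 0.0275 and 0.0068 to 0.0512. Each pair of Itgav ranges overlapped, and each median was lower in Col5a1CKO vehicle wounds. Itga2b was 2.65 ± 0.735 and 5.48 ± 2.51 CPM (SD, n = 4 each, adjusted p = 0.0668, edgeR). Their part in the Itgb3 and Itgav results was not tested.

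With cilengitide, Itgb3 was called lower than in Col5a1CKO vehicle wounds. It was 57.0, 69.9, 51.1 and 55.8 CPM with cilengitide, against 181, 132, 121 and 68.3 CPM with vehicle. Only vehicle replicate 4 overlapped the treated range, and the log2 fold change was -1.09 (SE 0.27, adjusted p = 0.0258, edgeR). The call lay near the threshold. The adjusted p was 0.0622 without vehicle replicate 1, 0.0588 without vehicle replicate 3, and 0.0847, 0.0592, 0.0896 and 0.0746 without cilengitide replicates 1, 2, 3 and 4, while the log2 fold change stayed between -1.30 and -0.83. Scaling by library size alone gave 0.0581. In this comparison 6.48% of 15563 genes were called higher and 6.59% lower, against 0 of 5 members higher and 1 of 5 lower.

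Itgav was 125, 157, 122 and 197 CPM with cilengitide. Treated replicate 4 lay above vehicle replicate 2, at 182 CPM, and the other 3 treated wounds lay below all vehicle wounds. The log2 fold change of -0.82 (SE 0.23, adjusted p = 0.0370, edgeR) passed the p threshold and not 2-fold. Itgb5 was 273, 285, 253 and 244 CPM with cilengitide, inside the vehicle range, with a log2 fold change of -0.18 (adjusted p = 0.616, edgeR) and a 95% interval of -0.65 to 0.30. Of the 2 beta chains whose alpha v receptors the peptide inhibits, the transcript of 1 was thus called lower and that of the other was not, and the difference between the genes was not tested.

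Itgb6 was 27.0, 55.4, 29.2 and 25.1 CPM with cilengitide, above vehicle replicates 1 to 3 and around replicate 4, at 32.0 CPM. Over all wounds the log2 fold change was 1.89 (SE 1.24, adjusted p = 0.288, edgeR), and without vehicle replicate 4 it was 4.32 (adjusted p = 0.0128). The keratinocyte sum was 36240 to 71030 CPM with cilengitide against 76.2 to 14290 CPM with vehicle, with Krt10, Krt1 and Cdh1 called higher and none lower. Itgb8 was 5.16, 3.74, 5.41 and 5.01 CPM, overlapping the vehicle wounds, with a log2 fold change of 0.45 (adjusted p = 0.208, edgeR).

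**Figure D4:**
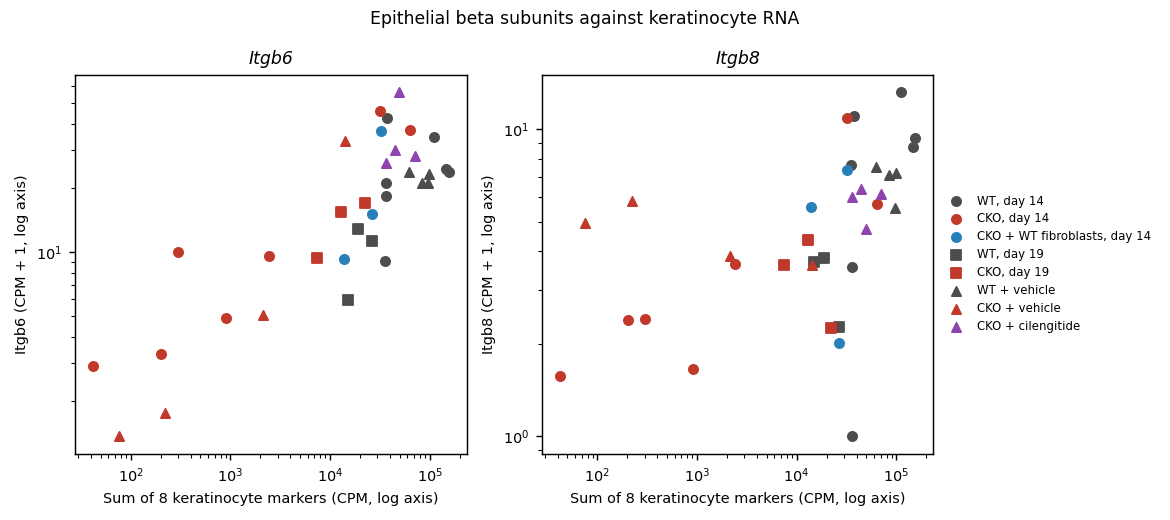
Each point is 1 wound, with Itgb6 (left) or Itgb8 (right) in CPM plus 1 against the sum of 8 keratinocyte markers in CPM, both on log axes, colours and shapes giving the group. The 8 Col5a1CKO wounds with a keratinocyte sum of at most 2434 CPM had Itgb6 of 0.363 to 8.99 CPM, and Itgb8 was 3.95 and 4.85 CPM in the 2 vehicle wounds with the lowest sums of their table.

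Of 14 ligand genes, 0 were called higher and 4 lower with cilengitide (median -0.80, against -0.06 over all genes). These were Cyr61 (-1.21, adjusted p = 0.0101), Tgfb1 (-1.22, adjusted p = 0.0134), Thbs1 (-2.85, adjusted p = 0.0269) and Spp1, which encodes osteopontin (-2.92, adjusted p = 0.0271). Of 17 adhesion genes 0 were higher and 4 lower (median -0.49), led by Lims1 (-1.04, adjusted p = 0.0162), Fermt3, the kindlin of blood cells (-1.45, adjusted p = 0.0171), and Pxn (-1.23, adjusted p = 0.0247). Of 20 other subunits 1 was higher, Itgb4 (2.52, adjusted p = 0.0368), and 7 were lower (median -0.71), led by Itga5 (-1.06, adjusted p = 0.0123), Itgb2 (-2.33, adjusted p = 0.0144) and Itgax (-1.29, adjusted p = 0.0171). Itgb1 was lower in every treated wound, at 755 to 1090 against 1324 to 1812 CPM, with a log2 fold change of -0.67 (adjusted p = 0.0608, edgeR) that did not pass. Macrophage markers fell in the same comparison, 3 of 6 called lower and 0 higher, from 1531 to 6709 CPM to 627 to 1183 CPM. Endothelial markers, at 284 to 533 against 411 to 971 CPM, and fibroblast markers, at 27700 to 43740 against 16050 to 64380 CPM, had 0 called. Of the 4 platelet markers tested, Pf4 and Gp5 were called lower. Itgb3 relative to Pecam1 was 0.327 to 0.559 with cilengitide and 0.422 to 0.653 with vehicle. Relative to Csf1r it was 0.223 to 0.322 with cilengitide and 0.125 to 0.499 with vehicle. Relative to Pdgfra these ranges were 0.284 to 0.657 and 0.2745 to 0.674. Relative to Col1a1 they were 0.0026 to 0.0039 and 0.0049 to 0.0111, without overlap. The part of these cells in the Itgb3 result was not tested.

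Against WT vehicle wounds, Itgb3 with cilengitide remained higher in every wound, at 51.1 to 69.9 against 16.4 to 32.2 CPM. The log2 fold change was 1.31 (SE 0.21, adjusted p = 0.0193, edgeR), or 2.47-fold, and the adjusted p was 0.0517, 0.0556 and 0.0540 without cilengitide replicates 2, 3 and 4. Itgav was also higher in every treated wound, at 122 to 197 against 76.5 to 109 CPM, with a log2 fold change of 0.71 (SE 0.18, adjusted p = 0.0344, edgeR), below 2-fold. Itgb6 was higher in every treated wound, at 25.1 to 55.4 against 19.99 to 22.8 CPM, and did not pass (log2 fold change 0.68, SE 0.24, adjusted p = 0.0753, edgeR). Per 10000 CPM of Krt14 and Krt5 it was 11.8 to 20.9 CPM with cilengitide and 10.95 to 17.8 CPM in WT wounds, which overlapped. The sum of 8 keratinocyte markers was 36240 to 71030 CPM with cilengitide and 62540 to 98510 CPM in WT wounds. Of these markers Krt10 and Krt1 were called lower and Dsg3 higher (adjusted p = 0.0396, 0.0475 and 0.0427, edgeR). The overlap holds for the ratio to Krt14 and Krt5 only, and a ratio to the sum was not taken. Itgb5 and Itgb8 had log2 fold changes of 0.27 (adjusted p = 0.299) and -0.28 (adjusted p = 0.288) and overlapped. Cell markers beside Itgb3 were higher as well, with 4 of 6 macrophage markers called (627 to 1183 CPM with cilengitide, 143 to 419 CPM in WT), 2 of 5 neutrophil markers (3140 to 7216 against 95.8 to 2200 CPM), 1 of 4 platelet markers tested, Pf4 (29.7 to 74.5 against 11.6 to 21.5 CPM), and 1 of 7 fibroblast markers, Dcn (27700 to 43740 against 5702 to 33210 CPM). None of the 6 endothelial markers was called (284 to 533 against 50.9 to 353 CPM). No macrophage, neutrophil, platelet, fibroblast or endothelial marker was called lower, and the part of these cells was not tested. Here 5.15% of 15514 genes were called higher and 3.43% lower, against 1 of 5 members higher and 0 of 5 lower. Each of these 3 comparisons shares a group of wounds with each of the others, so that their values are not independent. Ctgf (2.10, adjusted p = 0.0150), Thbs1 (2.62, adjusted p = 0.0217) and Spp1 (3.33, adjusted p = 0.0255) led the 4 ligand genes called higher of 14, Actn1 (1.17, adjusted p = 0.0193) and Zyx (1.14, adjusted p = 0.0193) the 4 adhesion genes of 17, and Itgam (2.01, adjusted p = 0.0195) and Itgb2 (1.61, adjusted p = 0.0254) the 5 other subunits of 20, which also included Itgb1 (1.26, adjusted p = 0.0267). No gene of these 3 lists was called lower.

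The genes whose levels ran most like each member were sought among 11493 genes that averaged 5 CPM or more in both tables, by the lower of the 2 Pearson correlations of log2(CPM + 1) over the 23 wounds of the first table and the 12 of the cilengitide table. These values describe wounds that share groups and libraries. For Itgb3 they were Thy1 (0.96 and 0.98), a fibroblast surface protein, Mmp19 (0.94 and 0.96), a matrix metalloproteinase, and Col5a3 (0.94 and 0.98), which encodes the type V collagen alpha 3 chain. For Itgav they were Lysmd3 (0.96 and 0.96), Atp13a3 (0.96 and 0.97) and Hspa13 (0.95 and 0.96). For Itgb6 they were keratinocyte genes, Dsg3 for desmoglein 3 (0.87 and 0.95), Lama3 for a laminin chain (0.86 and 0.94) and Crabp2 (0.86 and 0.99), and Dsg3 is also among the 8 keratinocyte markers. For Itgb5 they were Nucb1 (0.85 and 0.86), Sel1l (0.83 and 0.87) and Pcdhga10 (0.88 and 0.82). For Itgb8 the closest reached 0.72 in both tables, Scin (0.72 and 0.72), Dcp1a (0.73 and 0.72) and Cldn23 (0.75 and 0.72). Among the members, Itgav and Itgb3 correlated at 0.42 in the first table and 0.87 in the cilengitide table, and Itgb3 and Itgb6 at -0.60 in both.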

How the data were processed

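Wound biopsies were sequenced from strand-specific libraries (TruSeq stranded kit). The authors deposited raw counts per gene for each wound, made by alignment to mm9 with HISAT2 and counting over RefSeq exons in SeqMonk. The methods do not say whether that counting also applies to the cilengitide table, nor which strand setting was used. The first table lists RefSeq transcripts, and the transcript with the largest total stood for each symbol. Of its 29082 entries, 30 name no gene and were left out (at most 0.0694% of a wound's counts), as was 1 of the cilengitide table. RPKM values were computed here from the counts and transcript lengths of the first table.

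Each comparison was fitted separately in edgeR 4.0.16 (R 4.3.3) with TMM scaling, a low-count filter (filterByExpr, minimum 10) and the robust quasi-likelihood test, and p-values were adjusted by Benjamini-Hochberg over all genes tested. A gene was called at an adjusted p under 0.05 and at least 2-fold. The SE is the size of the log2 fold change over the root of its F statistic, and intervals use it with a normal approximation. With few wounds such intervals are too narrow for the stated 95%. For Itgb3 at day 19, for example, the interval of 0.03 to 1.89 lies above 0 at an unadjusted p of 0.0895 (edgeR). Scripts were tested on simulated counts. Alternatives were DESeq2 1.42.0, other scalings and filters, the library sets, the replicate block and each wound left out. The authors used DESeq2. Their methods give a 3-fold threshold, which was 1 alternative, and their figure legends give at least 2-fold.

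The members and gene lists were chosen with earlier results of these data known. Named were the 5 members, Itgb1, Itga2b and Col5a1, and from each list up to 3 called genes per direction with the smallest adjusted p, except where a list's few called genes were all named after their values were seen. Ly6g, meant for the neutrophil list, was not used here.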

Additional observations from a re-analysis of the deposited data

Results flagged for a closer look

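In Col5a1CKO vehicle wounds Itgb6 was 32.0 CPM in replicate 4 and 4.05, 0.363 and 0.745 CPM in the other 3, and the gap below the highest wound was 0.884 of the group's range, above Dixon's critical value of 0.829 for 4 samples. In Col5a1CKO cilengitide wounds Itgb6 was 55.4 CPM in replicate 2 and 25.1 to 29.2 CPM in the other 3, with a gap of 0.865 of the range. These were the 2 outlying wounds among 25 groups of a member that had 4 or more wounds, where chance alone marks about 1 in 20 groups.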

How the results depend on the processing

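Calls of Itgav and Itgb3 in Col5a1CKO against WT vehicle wounds, and of Itgb3 in Col5a1CKO against WT wounds of day 14, passed with every wound left out in turn, whereas the Itgb3 calls in both cilengitide comparisons did not. The count of members called moved as follows, and the cause was not tested. For Col5a1CKO against WT at day 14 it was 1, and 0 within the lower library set, within the upper set and at a 3-fold threshold. At day 19 it was 0, and 1 with DESeq2. Over all genes edgeR called 3 higher and 0 lower there, and DESeq2 708 and 782. For fibroblasts against WT it was 0, and 1 (Itgb3) with DESeq2, with library size only, with all groups in one fit, with the library set as covariate and within the upper set. For WT day 19 against day 14 it was 0, and 1 with DESeq2 (Itgb6), 1 with the covariate (Itgb3) and 2 within the upper set (Itgb6 and Itgb8). For Col5a1CKO against WT vehicle it was 2, and 1 at 3-fold. For cilengitide against Col5a1CKO vehicle it was 1, and 0 with library size only and at 3-fold and 2 with no fold threshold. For cilengitide against WT vehicle it was 1, and 0 at 3-fold and 2 with no fold threshold. With each wound left out in turn the count ran from 0 to 2 for cilengitide against Col5a1CKO vehicle, from 0 to 1 for cilengitide against WT vehicle and for fibroblasts against WT, from 2 to 3 for Col5a1CKO against WT vehicle, and did not move in the other comparisons.

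Correlations across genes between wounds with the same letter ran from -0.61 to 0.591. The same letter was rarely the best match, so letters were not taken as pairs. Between Col5a1CKO and WT wounds of day 14 they were 0.263 to 0.591 for letters a, b, c, f and g, which also share a library set. They were below 0 for letters d and e. The replicate block called 1 member, Itgav, for fibroblasts against Col5a1CKO (log2 fold change -1.70, adjusted p = 0.0411, edgeR), for WT day 19 against day 14 (-1.73, adjusted p = 0.0115) and for Col5a1CKO day 19 against day 14 (-1.14, adjusted p = 0.0362), where the fit of all wounds called 0. The block fit holds only lettered wounds a to c, and the same wounds without a block, an alternative chosen after seeing the data, also called 1, Itgav, in each (-1.65, -1.68 and -1.13). All but the later day and fibroblast wounds of these fits are of the lower library set, so that group and library set cannot be told apart in them.

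Directions turned only for log2 fold changes that were not called. With library size only these were Itgb8 at day 19 (-0.20) and Itgb5 for fibroblasts against Col5a1CKO (0.041). With the replicate block they were Itgb5 for fibroblasts against Col5a1CKO (0.024), Itgb6 and Itgb8 for fibroblasts against WT (0.17 and 1.11), Itgb8 in WT over time (0.86) and Itgb6 and Itgb8 in Col5a1CKO over time (1.60 and 1.198). The same wounds without a block gave 0.0071, then 0.32 and 0.32, and over time in Col5a1CKO -0.0047 for Itgb3, 1.43 for Itgb6 and 0.90 for Itgb8. With the covariate and within the upper set, Itgav turned for fibroblasts against Col5a1CKO (0.0083 and 0.067), for fibroblasts against WT (0.60 and 0.59) and in Col5a1CKO over time (0.51 and 0.58), and Itgb5 for fibroblasts against WT (-0.24 and -0.25) and in WT over time (-0.16 and -0.16). With 1 wound left out, ranges crossed 0 for Itgb5 at day 14 (-0.012 to 0.19), Itgb8 at day 19 (-0.17 to 0.48), fibroblasts against Col5a1CKO (Itgb5 -0.13 to 0.031, Itgb6 -0.46 to 0.90, Itgb8 -0.11 to 1.06), Itgb6 for fibroblasts against WT (-0.96 to 0.17), Itgb5 in WT over time (-0.14 to 0.60), and Itgb6 (-0.45 to 0.30) and Itgb8 (-0.65 to 0.33) in Col5a1CKO over time. Summing all RefSeq transcripts of a symbol gave a median Itgb3 share of 9.90% in Col5a1CKO wounds of day 14 and 4.24% in WT wounds. These shares are lower by construction, because Itgb5 and Itgb6 then enter with a second transcript and Itgb3 does not. Itgb8, at 0 to 402 counts per wound, is the member that depth limits most.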
